A study of Mus musculus with 4 samples.

Results

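Cells with transcripts that mark type 1 conventional dendritic cells (cDC1) were described in the mouse heart. They were 55 single cells, 0.132% of the 41533 cells kept in 4 droplet libraries. The cells were chosen by transcript counts. Each had at least 1 unique molecular identifier (UMI, 1 counted transcript molecule) of 2 or more of Xcr1, Clec9a, Itgae and Tlr3. Each also had no Ccr7 UMI, which left out mature migratory dendritic cells, and fewer than 30 UMIs of C1qa, C1qb and C1qc together per 10000 UMIs, which left out most macrophages. These cells are called members here, and the values of 11 of the 55, taken as a group, go against the cDC1 label, as described below. The levels of those 8 genes chose the members, so they are given as a description, with no test.

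Conventional dendritic cells take up antigen in tissues and present it to T cells. The type 1 branch depends on the transcription factors IRF8 and BATF3 and on ID2, and is known for cross-presentation, in which peptides of engulfed cells are loaded on MHC class I and shown to CD8+ T cells. Its surface receptors fit that role: XCR1 is the receptor for a chemokine made by activated CD8+ T cells and natural killer cells, CLEC9A binds actin filaments exposed by dead cells, and TLR3 senses double-stranded RNA. Itgae encodes the integrin chain CD103. The type 2 branch (cDC2) and related monocyte-derived cells carry lectins such as those of Cd209a, Clec10a and Mgl2, and SIRPA.

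The series held CSF1R-EGFP+ cells, in which the Csf1r promoter drives a green fluorescent protein, sorted from hearts of mice aged 12 to 16 weeks after Ly6G+ neutrophils had been gated out. The baseline group was 1 library of 3 pooled hearts with no surgery. The infarct group had 3 libraries, each made from a single heart 7 days after ligation of the left coronary artery, and per the labels the remote zone had been cut away. The labels call the sorted cells macrophages. A dendritic cell that does not switch on the reporter would have been lost at the sort, so shares are shares of sorted cells.

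The libraries held 10117 to 10782 kept cells with medians of 6398.5 UMIs in the baseline library and 8469.5 to 8556.5 in the infarct libraries. Members were deeper than the rest. They had a median of 14143 UMIs, against 9943.5 in the 868 cells with at least 2 Cd209a UMIs that met the same Ccr7 and C1q limits (Cd209a cells) and 8061 in all other cells. The summed members held 300725 UMIs in the baseline library and 258805, 116403 and 200929 UMIs in infarct replicates 1, 2 and 3, and the largest single cell gave 8.38% to 18.0% of a library's sum. Infarct replicate 1 stood apart in that 6 of its 13 members were among the cells with the highest doublet scores of that library, against 1 of 23 in the baseline library and none in the other two. Those 6 cells had 15602 to 37072 UMIs, and 4 of them had C1q levels of 15 or more per 10000. Between 26 and 34 cell barcodes were shared by any pair of libraries, and 1 member was among them.

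The rule genes differed in how widely they were found among the members. Tlr3 had a UMI in 50 of 55 cells, Clec9a in 48, Xcr1 in 38 and Itgae in 26. All 4 genes were found in 20 cells, 3 in 12 cells and 2 in 23 cells. Xcr1 and Clec9a were found together in 33 cells (15 at baseline and 11, 3 and 4 in infarct replicates 1, 2 and 3), one without the other in 20 cells, and neither was found in 2 baseline cells. In counts per 1000000 UMIs of the summed members (CPM), Xcr1 was at 181 in the baseline library and at 239, 150.3 and 158 in the infarct libraries. Clec9a was at 280.3 CPM at baseline and at 147, 141 and 112 in the infarct libraries. Itgae was at 65.0 CPM at baseline and at 187, 70.7 and 132 after infarction, and Tlr3 at 249.5 and at 163, 194 and 204.

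The members were set beside a list of 30 further genes of cDC1 identity, 29 of which were in the count tables and none of which the rule used. The list was chosen with earlier results of these data known. Here and below it describes the members and is not an independent check of the label. Of the 55 members, 49 had an Irf8 UMI, 47 Batf3, 51 Id2, 50 Wdfy4 and 53 Naaa. Irf8 alone is no marker here, since 69.3% of all other cells also had a UMI at their lower depth. Narrower genes set the members apart more clearly. Gcsam had a UMI in 30 of 55 members (54.5%), in 0% of Cd209a cells and in 0.0289% of all other cells. Ifi205 was found in 85.5% of members, 10.7% of Cd209a cells and 4.30% of other cells, and Snx22 in 41.8%, 0.691% and 0.125%. Sept3 was found in 58.2%, 8.87% and 0.309% of the same groups. Cd8a, which marks cDC1 of lymphoid organs, had a UMI in 1 member, and the plasmacytoid marker Siglech, the B cell marker Cd79a, the T cell marker Cd3e and the neutrophil gene S100a9 had none in all 55.

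The members were not uniform. The summed identity list made up a median of 254 UMIs per 10000 in a member, with 19 of its genes found, and ranged from 47.0 to 495. At a level of 150 per 10000, chosen after the values were seen, 44 members lay at or above and 11 below. The 44 cells had a median of 29 Irf8 UMIs, 31 of them had both Xcr1 and Clec9a, and 1 had a Cd209a UMI. The 11 cells had a median of 2 Irf8 UMIs, 5 had none, 2 had both Xcr1 and Clec9a, and 6 had a Cd209a UMI. Of those 11, 5 came from the baseline library, 4 from infarct replicate 2 and 2 from replicate 3, so 4 of the 8 members of infarct replicate 2 were of the weak kind. As a group, those 11 cells have values that go against the cDC1 label, but not each of them does. A baseline cell among them with no Cst3 UMI had Xcr1, Clec9a and Itgae and 11 identity genes. The 11 cells stayed in every count below unless said otherwise.

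**Figure D1:**
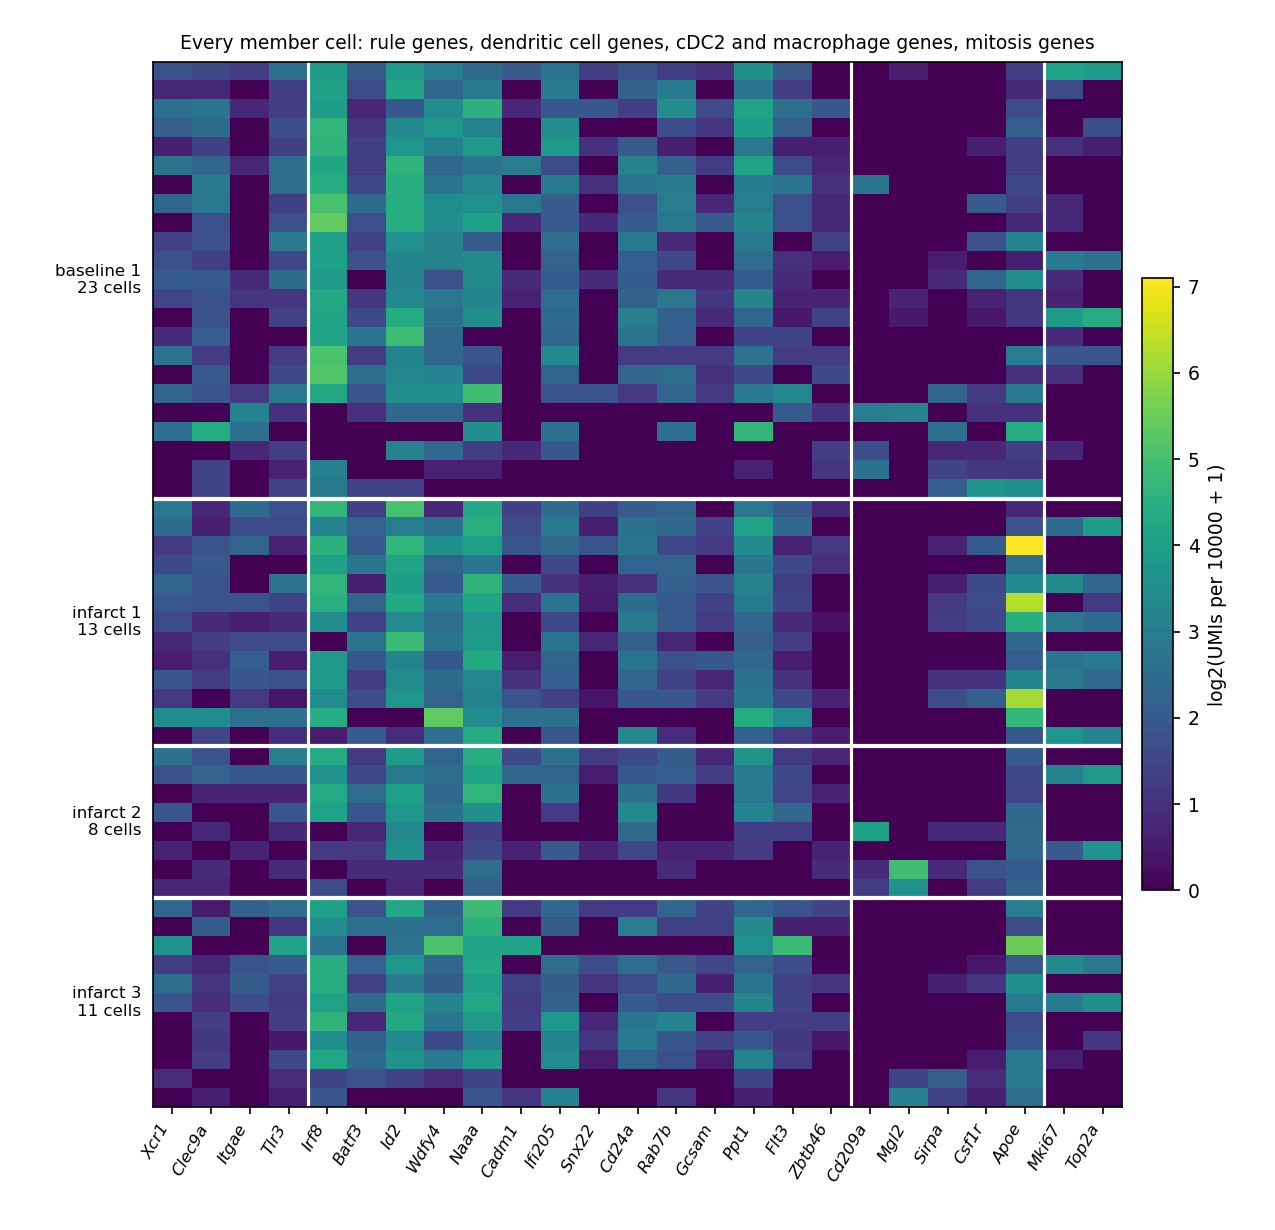
Each of the 55 members is a line and each gene a column, coloured by log2(UMIs per 10000 + 1), grouped by library and, from left to right, as rule genes, dendritic cell genes, Cd209a, Mgl2, Sirpa, Csf1r and Apoe, and 2 mitosis genes. Most lines carry Irf8, Id2, Wdfy4 and Naaa together, the lowest lines of the baseline library and of infarct replicates 2 and 3 carry little Irf8 or some Cd209a or Mgl2, and several infarct 1 cells carry high Apoe.

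Cells next to each limit of the rule were compared with the members, as values only. Cells with Clec9a as their only rule gene numbered 137, and together had 893 CPM of Irf8 but 484 CPM of Siglech and 55.9 CPM of Wdfy4. Only 3 cells had Xcr1 alone, while 49 had Itgae alone and 288 had Tlr3 alone. The C1q limit kept out 47 cells with 2 or more rule genes, 7 of which had 30 to 60 C1q UMIs per 10000. The 8 members with 15 to 30 C1q UMIs per 10000 had 1078 CPM of Irf8, together with 4804 CPM of Apoe and 229 CPM of Csf1r, both macrophage genes. The Ccr7 limit kept out 2 cells, with 10 and 34 Ccr7 UMIs, 608 CPM of the maturation gene Fscn1 and 781 CPM of the chemokine Ccl22.

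The 250 bases upstream of the start site of the 34 rule and identity genes were searched for DNA motifs, on both strands. The motifs were the interferon-stimulated response element, composites of an IRF and an ETS site, and an AP-1 site alone. IRF8 and BATF3 bind composite DNA elements, but a composite of an AP-1 and an IRF site was not searched. RefSeq promoters (GRCm38.p6, the patch release of mm10) matched 28 of the 34. The interferon-stimulated response element, searched as GAAA, any 2 bases and GAAA, was present in 4 of 28 promoters (14.3%) and in 3.04% of 27025 promoters. The composite with an ETS site was present in 2 of 28 as GAAA, any 2 bases and GGAA (2.28% of all) and in 2 of 28 as GGAA, any 2 bases and GAAA (2.38% of all). The AP-1 letters TGANTCA were present in none of the 28 and in 6.87% of all promoters. These are matches of letters and not measured binding. Promoters with a match are shown for the rule gene Clec9a and for Ifi205, Tlr11 and Dpp4, identity genes that were higher in members than in all other cells below. Each is printed from its own strand, 250 bases up to the start site, with matches in capitals: a composite, on the opposite strand, at -70 to -61 of Clec9a, a response element at -134 to -125 of Ifi205 and, on the opposite strand, at -52 to -43 of Dpp4, and a composite at -137 to -128 of Tlr11 followed by a response element that does not overlap it. Clec9a lies at chr6:129408612-129408861 (+ strand), Ifi205 at chr1:174031756-174032005 (- strand), Tlr11 at chr14:50357664-50357913 (+ strand) and Dpp4 at chr2:62412232-62412481 (- strand).
Clec9a: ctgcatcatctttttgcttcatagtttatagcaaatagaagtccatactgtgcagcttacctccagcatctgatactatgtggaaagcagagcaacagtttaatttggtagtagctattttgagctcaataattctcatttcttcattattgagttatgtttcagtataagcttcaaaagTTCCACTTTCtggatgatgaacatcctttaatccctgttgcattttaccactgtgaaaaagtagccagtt
Ifi205: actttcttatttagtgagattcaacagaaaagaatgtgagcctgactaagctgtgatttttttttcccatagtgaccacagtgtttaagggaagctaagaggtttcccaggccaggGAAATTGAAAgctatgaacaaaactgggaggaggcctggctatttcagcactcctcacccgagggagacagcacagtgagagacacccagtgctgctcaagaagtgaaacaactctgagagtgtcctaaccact
Tlr11: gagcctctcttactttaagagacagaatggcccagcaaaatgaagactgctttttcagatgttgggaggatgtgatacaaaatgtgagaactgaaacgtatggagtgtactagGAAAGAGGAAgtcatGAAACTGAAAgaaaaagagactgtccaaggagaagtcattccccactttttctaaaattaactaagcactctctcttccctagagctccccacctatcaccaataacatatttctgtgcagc
Dpp4: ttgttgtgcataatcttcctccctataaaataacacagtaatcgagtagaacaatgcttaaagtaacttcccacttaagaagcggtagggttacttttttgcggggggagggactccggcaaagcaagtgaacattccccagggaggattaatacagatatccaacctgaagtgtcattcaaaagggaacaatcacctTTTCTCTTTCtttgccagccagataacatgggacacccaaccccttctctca

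The share of members among kept cells was lower in each infarct library than in the baseline library. It was 0.225% at baseline (23 of 10238 cells, exact 95% binomial interval 0.142% to 0.337%) and 0.125% (13 of 10396), 0.0742% (8 of 10782) and 0.109% (11 of 10117) after infarction, a mean of 0.103% ± 0.0260 (SD, n = 3). There was 1 baseline library, so the difference was not tested. Depth bears on this share, because the rule needs 2 genes with a UMI. With each cell thinned to 2000 UMIs before the rule was applied, the share was 0.0556% at baseline (5 of 8991 cells) and 0.0347% ± 0.0158 after infarction (10 cells in all). Against Cd209a cells, members made up 8.10% of both together at baseline (interval 5.20% to 11.9%) and 4.50%, 5.03% and 5.76% after infarction. After thinning, those shares were 3.47% and 2.77% ± 0.616. Intervals cover counting error only.

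**Figure D2:**
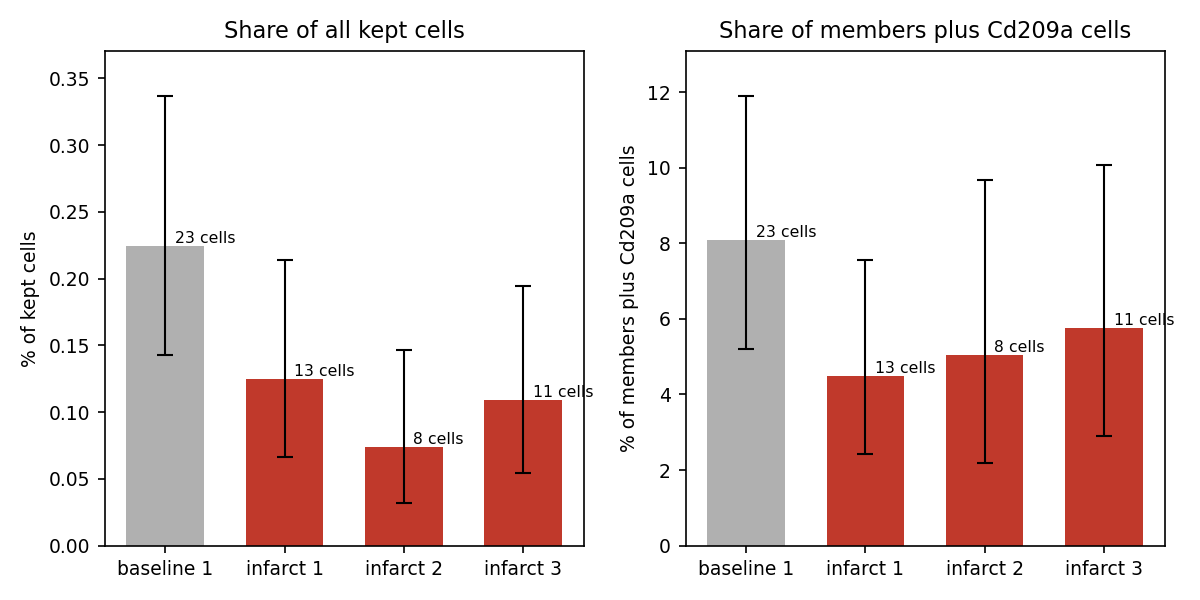
Share of members in each library as a percentage of kept cells (left) and of members plus Cd209a cells (right), with exact 95% binomial intervals and the number of members. The baseline bars, 0.225% and 8.10%, stand above the 3 infarct bars in both panels, and the intervals overlap.

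To ask which genes set members apart from Cd209a cells, UMIs were summed per infarct library over 32 members and 607 Cd209a cells. The sums were compared within hearts. The low-count filter kept genes that were high in either group alone, so a gene near 0 in the other group could be tested. The 32 included the weak members of infarct replicate 2 (4 cells) and replicate 3 (2 cells). Members had higher levels of 18 of 23 tested cDC1 identity genes, Irf8, Batf3 and Id2 among them, and of 9 of 15 S phase and 10 of 15 mitosis genes. They had lower levels of 8 of 15 cDC2 genes, a list on which the choice of Cd209a cells bears, and of 6 of 12 MHC class II genes. Of 7036 genes tested, 178 were higher in members (2.53%) and 148 lower (2.1%) at an adjusted p of 0.01, together 4.63%. Over all genes the median log2 fold change was -0.04. The calls leaned on infarct replicate 1, which held the most member UMIs: without it 10 genes were higher and 10 lower, and 322 of the 326 calls had the same sign. Removing the cells with the highest doublet scores left 226 of the 326.

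Of the 30 cDC1 identity genes, 23 passed the low-count filter and 18 were higher in members, with none lower and a list median of 2.68. The count was also 18 with the highest doublet scores removed and 18 among cells with at least 10000 UMIs on both sides, and 7 without infarct replicate 1 (Irf8, Id2, Naaa, Cd24a, Rab7b, Ppt1 and Cst3). Irf8, the factor on which the lineage depends, was at 1343, 902 and 1467 CPM in the members of infarct replicates 1, 2 and 3 and at 143, 106 and 76.9 CPM in their Cd209a cells (adjusted p = 7.5e-07, log2 fold change 3.52 ± 0.203 (SE), by edgeR's quasi-likelihood test). In the baseline library it was at 1808 CPM in members and 165 in Cd209a cells. Every member sum lay above every Cd209a sum, a separation seen for 14.7% of all genes tested in the higher direction, 17.4% in the lower and 32.1% in either. Batf3, its partner factor, was at 271, 177 and 306 CPM against 76.2, 43.2 and 62.1 (adjusted p = 4.07e-05, log2 fold change 2.04 ± 0.201 (SE)). Id2, a repressor of E proteins, was at 1367, 875 and 1059.6 CPM against 239, 147 and 189 (adjusted p = 1.56e-07, log2 fold change 2.51 ± 0.127 (SE)). The same order held for all 3 genes in the baseline library. Nfil3, which acts upstream of this lineage, was near its detection limit with 3.98, 17.7 and 56.0 CPM against 25.9, 47.2 and 32.4 and did not pass (adjusted p = 0.699).

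Other genes of the identity list act inside the cell. Wdfy4, which is required for cross-presentation by cDC1, was at 518, 256 and 433 CPM against 103, 78.9 and 87.4 (adjusted p = 1.15e-05, log2 fold change 2.15 ± 0.183 (SE)). Naaa, a lysosomal amidase, was at 1526, 1149 and 1523 CPM against 198, 133 and 146 (adjusted p = 3.1e-08, log2 fold change 3.14 ± 0.134 (SE)). Rab7b, a late endosomal GTPase, was at 267, 141 and 295 CPM against 11.1, 12.8 and 11.5 (adjusted p = 1.02e-06, log2 fold change 4.33 ± 0.273 (SE)). These 3 genes did not overlap between the groups in any library. Ppt1, a lysosomal thioesterase, was higher by 2.70 ± 0.164 on the log2 scale, and Cst3, the protease inhibitor cystatin C, by 1.90 ± 0.0722, at 16522, 15744 and 16917 CPM in members. Agpat3, an acyltransferase outside the lists, was higher by 4.96 ± 0.549. With 11 UMIs in infarct Cd209a cells, it passed the low-count filter only through the members.

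Further genes of the identity list were also higher. Gcsam, an adaptor that regulates cell motility, had 59 UMIs in infarct members (124, 44.2 and 117 CPM) and none in 607 Cd209a cells, at least 214-fold higher when 3 counts over all Cd209a cells are taken as the floor. It passed the low-count filter only through the members. Snx22, a sorting nexin, was at 43.8, 35.4 and 81.5 CPM against 1.44, 1.35 and 0 (adjusted p = 0.000191, log2 fold change 5.61 ± 0.667 (SE)). With 6 UMIs in infarct Cd209a cells, Snx22 also passed the low-count filter only through the members. Cd24a, a glycoprotein carried by cDC1, was at 490.0, 301 and 367 CPM against 78.4, 39.8 and 61.5 (adjusted p = 1.93e-06, log2 fold change 2.68 ± 0.180 (SE)). Sept3, a septin, was higher by 3.36 ± 0.262, Cadm1, an adhesion molecule that binds a receptor on T and natural killer cells, by 3.05 ± 0.383, and Btla, an inhibitory receptor, by 2.01 ± 0.331. Cd36, a scavenger receptor, was higher by 4.15 ± 0.483. With 25 UMIs in infarct Cd209a cells, it passed the low-count filter only through the members. It stood at 83.7, 88.4 and 35.7 CPM in infarct members and at 338 in baseline members. Of its baseline member UMIs, 32.3% were in 1 cell, which had a high doublet score. Pdia5, Fnbp1 and Ckb completed the genes that passed, at 4.43 ± 0.608, 1.35 ± 0.179 and 0.90 ± 0.115.

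The 5 identity genes that did not pass were of different kinds. Ifi205, an interferon-inducible gene, was at 347, 274 and 576 CPM against 38.8, 57.3 and 15.4 and did not pass (log2 fold change 3.51 ± 0.680, adjusted p = 0.0831). Hepacam2 had a log2 fold change of 1.56 (adjusted p = 0.0115) and Rab43 of 0.89 (adjusted p = 0.151). Dpp4, the peptidase CD26, was at 187, 177 and 239 CPM in members and at 169, 174 and 168 in Cd209a cells (log2 fold change 0.24 ± 0.184, adjusted p = 0.503). Most genes common to conventional dendritic cells did not pass either. Flt3, the receptor for the dendritic cell growth factor, was at 167, 124 and 168 CPM against 108, 109 and 80.2 (log2 fold change 0.66 ± 0.221, adjusted p = 0.0858), and the lineage factor Zbtb46 at 31.9, 35.4 and 50.9 against 30.6, 24.3 and 29.1. Of the 13 genes of that list, 1 was higher (Batf3) and 1 lower (Traf1).

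**Figure D3:**
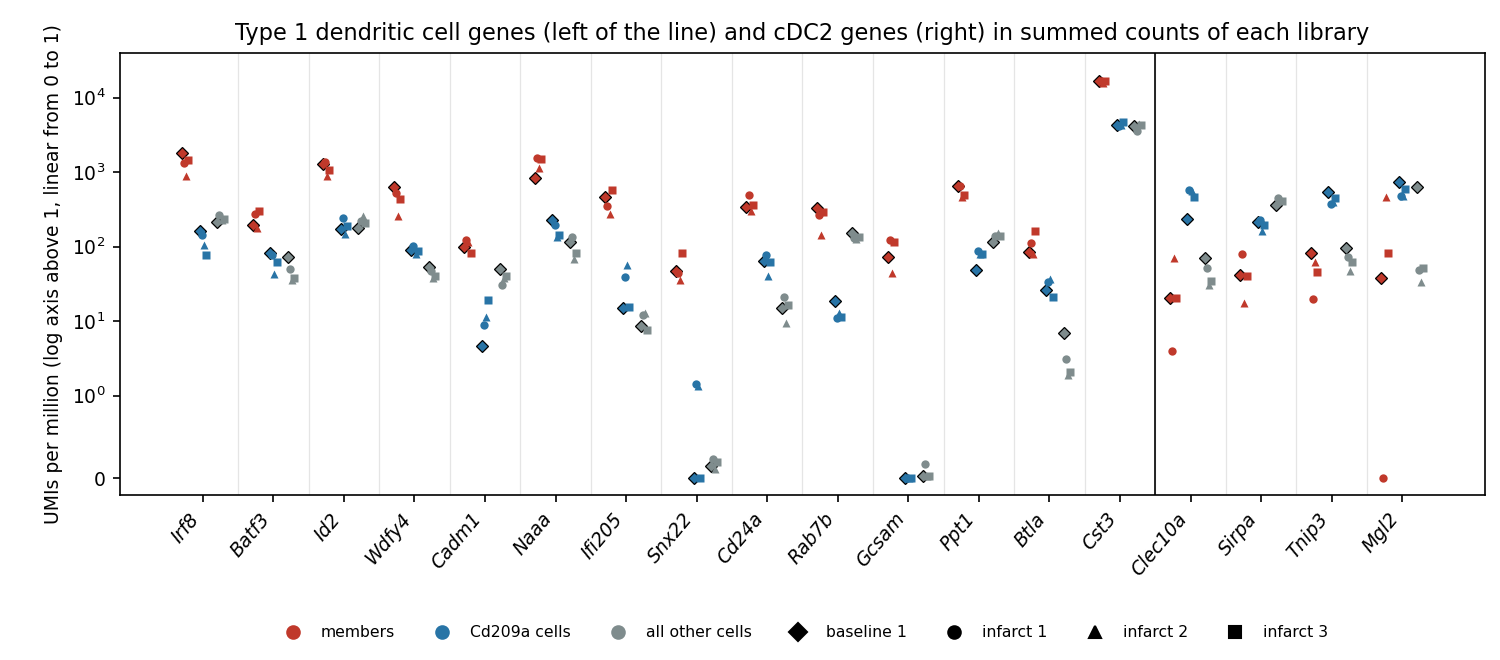
CPM of summed counts in each library (log axis above 1, linear below) for 14 cDC1 identity genes and 4 cDC2 genes in members, Cd209a cells and all other cells, with a symbol for each library. For the identity genes the members stand above the Cd209a cells in every library, and for Mgl2 infarct replicate 2 members reach the level of Cd209a cells.

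Of 18 cDC2 genes, Cd209a itself chose the comparison cells and was not tested. Of the 15 others that passed the filter, 8 were lower in members and none higher, with a median of -2.02. The comparison cells were chosen by a cDC2 gene, so that choice bears on the direction of the whole list. Clec10a, a galactose-binding lectin, was at 3.98, 70.7 and 20.4 CPM against 573, 558 and 458 (adjusted p = 0.001, log2 fold change -4.45 ± 0.458 (SE)). Tnip3, an inhibitor of NF-kB signalling, was at 19.9, 61.9 and 45.8 CPM against 377, 395 and 453 (adjusted p = 6.96e-06, log2 fold change -3.42 ± 0.263 (SE)), and these 2 genes also passed without infarct replicate 1. Cd209d, another lectin of the Cd209 group, had no UMI in infarct members and 470 in Cd209a cells, at least 14.4-fold lower in members. It passed the low-count filter only through the Cd209a cells. Sirpa, the receptor for CD47, was at 79.7, 17.7 and 40.8 CPM against 231, 163 and 197 (adjusted p = 0.000521, log2 fold change -2.02 ± 0.272 (SE)). Itgam, the integrin chain CD11b, was lower, at a log2 fold change of -1.87 ± 0.291, and Cfp, Cd300a and Il1r2 also passed.

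The cDC2 list was not uniformly low in the members. Mgl2 was at 0, 469 and 81.5 CPM in members and 486, 477 and 600.5 in Cd209a cells, so the member sum of infarct replicate 2 reached the level of its Cd209a cells (adjusted p = 0.547). Of the 69 Mgl2 UMIs in infarct members, 37 were in 1 cell. The summed cDC2 list was at 3173 CPM in the members of infarct replicate 2, against 976 and 667 in replicates 1 and 3 and 926 at baseline. Irf4, the factor of the cDC2 branch, was at 7.97, 17.7 and 0 CPM against 55.0, 34.4 and 23.6 (log2 fold change -2.45, adjusted p = 0.0252).

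Genes of MHC class I loading were partly higher in members. Of 28 cross-presentation genes tested, 8 were higher and 2 lower, with a median of 0.18. Psmb9, a subunit of the immunoproteasome, which cuts proteins into peptides for class I, was at 725, 734 and 759 CPM against 302, 291 and 255 (adjusted p = 3.94e-05, log2 fold change 1.38 ± 0.136 (SE)). Psmb8, a second subunit, was at 1554, 1432 and 1691 CPM against 752, 770.2 and 687 (adjusted p = 6.78e-05, log2 fold change 1.08 ± 0.113 (SE)). The peptide transporter subunits Tap2 and Tap1 were higher by 1.60 ± 0.216 and 1.07 ± 0.185. The proteasome activators Psme1 and Psme2 were higher by 1.02 ± 0.135 and 1.01 ± 0.164, the chaperone Pdia3 by 0.96 ± 0.158, and Ncf4, a subunit of the NADPH oxidase, by 1.22 ± 0.185. The third immunoproteasome subunit, Psmb10, had a log2 fold change of 0.16 ± 0.201 (adjusted p = 0.72).

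The class I chain itself went the other way. H2-K1 was at 996, 822 and 815 CPM in members and 1436, 1416 and 1326 in Cd209a cells (adjusted p = 0.00183, log2 fold change -0.67 ± 0.108 (SE)). H2-D1 had a log2 fold change of -0.47 and B2m, its light chain, of -0.41, with adjusted p-values of 0.0109 and 0.0173, just outside the threshold. Cybb, the catalytic subunit of the oxidase, was lower, at -1.34 ± 0.166, the opposite direction to Ncf4. With the highest doublet scores removed the counts were 8 higher and 2 lower, among cells with at least 10000 UMIs 7 and 1, and without infarct replicate 1 none passed.

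MHC class II genes, which serve presentation to CD4+ T cells, were abundant in both groups and modestly lower in members. Of 12 tested, 6 were lower and none higher (median -0.42). H2-Aa was at 7845, 9087 and 7605 CPM against 11099, 11434 and 11056 (adjusted p = 0.00165, log2 fold change -0.46 ± 0.0738 (SE)), and Cd74, the invariant chain, at 17864, 21268 and 19918 against 24611, 25502 and 27013 (adjusted p = 0.00214, log2 fold change -0.39 ± 0.0658 (SE)). Ctss, the protease that trims the invariant chain, was lower, at -0.91 ± 0.0996, and H2-Oa, H2-Eb1 and H2-Ab1 also passed. These differences were small: among cells with at least 10000 UMIs 1 of the 6 passed, and without infarct replicate 1 none did.

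Signals to T cells and receptors for positioning were mostly at or below the level of Cd209a cells. Of 16 cytokine, chemokine and costimulatory genes tested, 4 were lower and none higher. Tnfsf9, the ligand 4-1BBL, was at 12.0, 8.84 and 35.7 CPM against 142, 260.3 and 235 (adjusted p = 3.81e-05, log2 fold change -3.36 ± 0.325 (SE)). Ccl17 had 1 UMI in infarct members and 374 in Cd209a cells, a ratio of 34.4 with a counting interval of 6.14 to 1364, and Cd83 and Ccl4 were the other 2. Il12b, the cytokine subunit by which activated cDC1 drive T cell responses, had no UMI in the 55 members or the 868 Cd209a cells, which allows a level of up to 5.35 CPM in the infarct members together. Havcr2, the checkpoint receptor TIM-3, was at 108, 53.0 and 112 CPM against 24.4, 40.5 and 43.9 and just missed the threshold (log2 fold change 1.45, adjusted p = 0.0124).

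Among chemokine receptors, Cxcr3, the receptor for interferon-induced chemokines, was higher in members, at 47.8, 17.7 and 66.2 CPM against 2.52, 2.70 and 6.04 (adjusted p = 0.000609, log2 fold change 3.60 ± 0.498 (SE)). Cxcr3 passed the low-count filter only through the members. Ccr1, a receptor for inflammatory chemokines, was lower, at -2.55 ± 0.456. Ccr2, which brings monocytes and dendritic cell precursors into tissue, was at 717, 725 and 280.2 CPM against 1024, 828 and 895 and did not pass (adjusted p = 0.171). Of 15 interferon-stimulated genes none passed in either direction. Of 11 integrins Itgam alone passed. The plasmacytoid gene Tcf4 was lower, at -1.57 ± 0.291, and Siglech had no UMI in infarct members against 293 in Cd209a cells, at least 8.995-fold lower. Siglech passed the low-count filter only through the Cd209a cells.

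Immediate-early genes, which can be switched on by tissue digestion, were lower in members. Of 10 stress and immediate-early genes, 4 were lower and none higher. Egr1 was at 167, 186 and 173 CPM against 488, 421 and 818 (adjusted p = 0.000149, log2 fold change -1.71 ± 0.197 (SE)), and Junb, Fosb and Atf3 were lower, at -1.03 ± 0.106, -1.05 ± 0.153 and -1.04 ± 0.164. Beyond the lists, the lowest genes by the naming rule were Dab2, an endocytic adaptor, at 43.8, 17.7 and 50.9 CPM against 469.8, 535 and 433 (adjusted p = 2.99e-06, log2 fold change -3.55 ± 0.252 (SE)), Ptgs2, the prostaglandin synthase COX-2 (-3.54 ± 0.512), and the lymphotoxin gene Ltb (-3.99 ± 0.490). Mcemp1, Ffar2, Timp1 and Cdh1 had 3 UMIs each in infarct members, and were 29.5 (interval 10.1 to 143), 24.0 (8.18 to 117), 16.8 (5.73 to 81.8) and 12.3 (4.18 to 59.9) times higher in Cd209a cells.

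**Figure D4:**
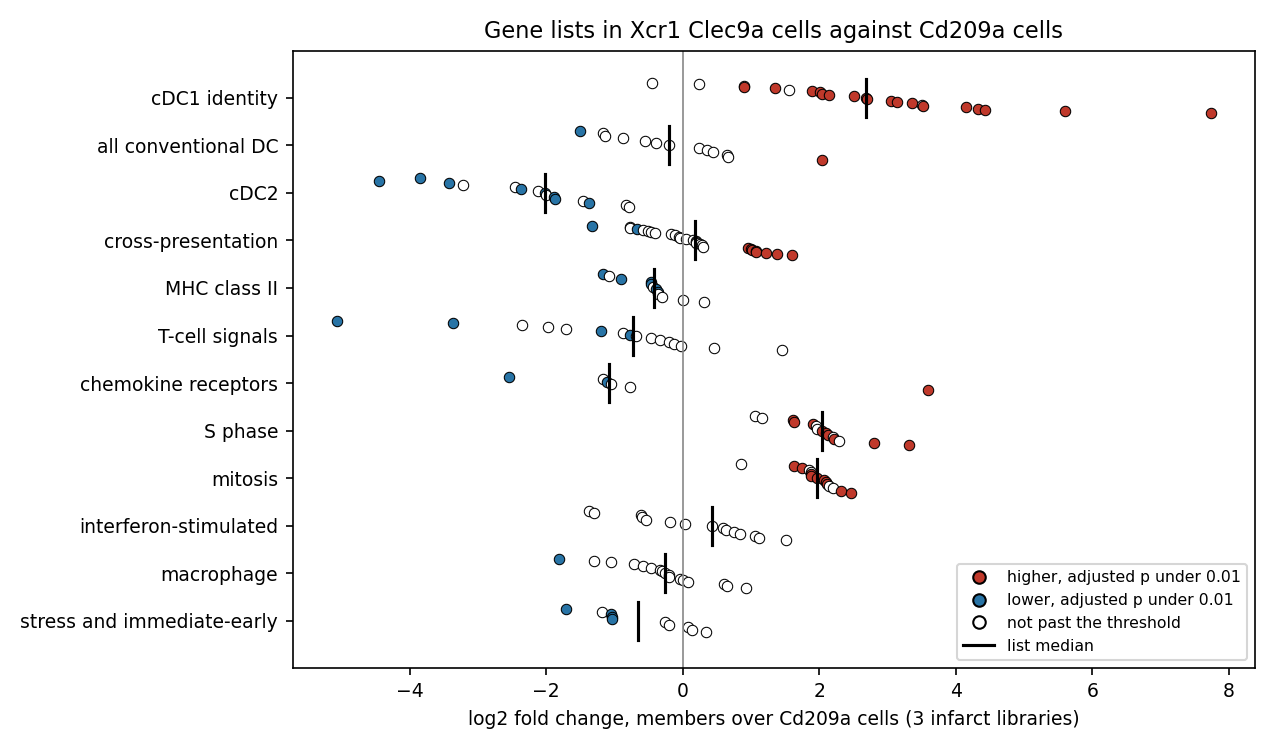
Fitted log2 fold change of members over Cd209a cells in the 3 infarct libraries for each tested gene of 12 lists, filled where the adjusted p was under 0.01, with the list median as a bar. Points of the cDC1 identity, S phase and mitosis lists lie mostly to the right and cDC2 points to the left, and Gcsam (farthest right) and Cd209d, which have no UMI in one group, are drawn at their bounds of at least 214-fold higher and at least 14.4-fold lower.

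Cell cycle genes were higher in members. Against Cd209a cells, 9 of 15 S phase genes and 10 of 15 mitosis genes were higher in members and none lower, with medians of 2.04 and 1.97. Mki67, a protein of cycling nuclei, was at 430.3, 194 and 214 CPM against 63.6, 32.4 and 103 (adjusted p = 0.00151, log2 fold change 2.11 ± 0.309 (SE)). Rrm2, which supplies deoxynucleotides, was at 95.6, 124 and 45.8 CPM against 6.11, 5.40 and 14.3 (adjusted p = 0.00104, log2 fold change 3.32 ± 0.491 (SE)), and Tyms, thymidylate synthase, at 75.7, 106 and 76.4 against 8.99, 9.44 and 18.1 (adjusted p = 0.000509, log2 fold change 2.79 ± 0.375 (SE)). The replication genes Pcna and Mcm7 were higher by 1.63 ± 0.268 and 2.22 ± 0.380, and Clspn, a checkpoint adaptor, by 3.27 ± 0.528. Fewer S phase and mitosis genes passed under other choices: 6 and 6 genes passed with the highest doublet scores removed, 3 and 2 among cells with at least 10000 UMIs, and none without infarct replicate 1.

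Depth affects such counts per cell, so all cells were also thinned to 2000 UMIs, which left out 2 members. The members in these counts were chosen at full depth, and thinning does not change that choice. Cycling shares of members chosen after thinning were not taken. Of the thinned members, 6 of 13, 2 of 8 and 2 of 10 in infarct replicates 1, 2 and 3 had UMIs of at least 2 mitosis genes, a mean of 30.4% ± 13.9 (SD, n = 3). The same share was 4.83% ± 2.41 in Cd209a cells and 3.20% ± 0.713 in all other cells. In the baseline library it was 18.2% of members (4 of 22, interval 5.19% to 40.3%) and 8.08% of Cd209a cells. Without thinning the infarct means were 45.6%, 9.97% and 7.55%, at median depths of 14143, 9943.5 and 8061 UMIs over the 4 libraries. For at least 2 S phase genes the thinned means were 38.7% ± 1.26 in members, 8.999% ± 3.32 in Cd209a cells and 9.02% ± 0.402 in other cells, and 74.9%, 47.4% and 44.1% without thinning. Among cells with at least 10000 UMIs, 2 or more mitosis genes were found in 7 of 12, 3 of 7 and 5 of 10 members of infarct replicates 1, 2 and 3 and in 13.6%, 10.4% and 18.4% of Cd209a cells. These members were still deeper, with medians of 20429, 15306 and 19555.5 UMIs against 11942, 12318 and 11882, so this cut did not equalize depth. For at least 2 S phase genes the infarct means were 83.0% of members and 63.2% of Cd209a cells. In the baseline library the shares were 35.3% and 29.5% for mitosis genes. For S phase genes they were 64.7% and 76.3%, the opposite direction.

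Identity levels were close in members with and without mitosis genes. The 22 members with at least 2 mitosis genes before thinning (7, 7, 3 and 5 in the baseline library and infarct replicates 1, 2 and 3) had a median identity level of 248 per 10000, and the 33 others 261. The 22 were deeper, with a median of 20350.5 UMIs against 13433 in the 33 others. At least 10 mitosis genes were found in 13 members, 6 of them in infarct replicate 1, at a median of 20898 UMIs. Of the 22, 4 had high doublet scores.

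**Figure D5:**
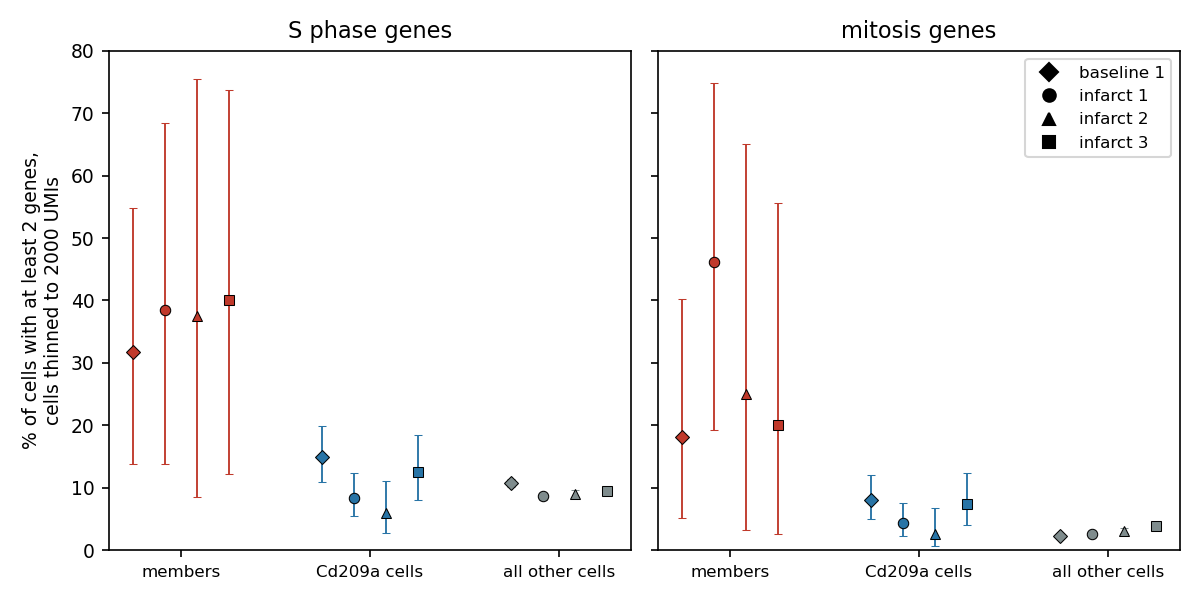
Percentage of cells with UMIs of at least 2 genes of the S phase (left) and mitosis (right) list after every cell was thinned to 2000 UMIs, for members, Cd209a cells and all other cells of each library, with exact 95% binomial intervals. The cell groups were chosen at full depth. Members lie between 18.2% and 46.2% for mitosis genes, above the other groups in every library, with wide intervals because each rests on 8 to 22 cells.

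Against all other cells of the infarct libraries, the members had higher levels of dendritic cell genes and lower levels of macrophage genes. Of 12878 genes tested, 701 were higher (5.44%) and 931 lower (7.23%), together 12.7%, and the median log2 fold change over all genes was -0.35. The sums of members lay wholly above or below those of other cells for 51.6% of genes. Of 28 identity genes tested 24 were higher and none lower. Their median was 2.86, or 3.17 over the 27 genes left without Cd8a, which had no UMI in infarct members and no usable bound. The 10 highest genes by the naming rule were Gcsam (10.24 ± 0.622), Sept3, Snx22, Btla, Ffar4, Ifi205, Kctd14, Kit, Hepacam2 and Cd24a (4.56 ± 0.213). Ifi205 was at 347, 274 and 576 CPM in members and 12.2, 12.7 and 7.56 in other cells (adjusted p = 4.06e-92, log2 fold change 5.16 ± 0.221 (SE)). Kit, the receptor for stem cell factor, was at 71.7, 70.7 and 61.1 CPM against 3.47, 2.57 and 1.70 (adjusted p = 2.28e-17, log2 fold change 4.65 ± 0.519 (SE)).

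Some genes that had not passed against Cd209a cells passed here. Dpp4 was higher by 3.79 ± 0.268 (adjusted p = 8.25e-43), Flt3 by 4.41 ± 0.323 (adjusted p = 7.61e-40) and Zbtb46 by 4.32 ± 0.633 (adjusted p = 3.6e-10). Of 13 genes common to conventional dendritic cells 8 were higher, and Clec12a was lower. Tlr11, a sensor of profilin kept by cDC1 in mice, had 11 UMIs in infarct members at 31.9, 0 and 15.3 CPM against 0.408, 0.256 and 0.329 (adjusted p = 1.96e-08, log2 fold change 5.62 ± 0.910 (SE)), and did not pass without infarct replicate 1 (adjusted p = 0.174). Members of infarct replicate 2 had none. Of the 16 Toll-like receptor genes tested, 8 were lower, among them Tlr2 at -2.56 ± 0.322 and Tlr7 at -2.85 ± 0.506 on the log2 scale, and Tlr11 and Myd88 were higher. Tlr4 had 2 UMIs in infarct members. For Myd88 the direction was not stable, with a log2 fold change of 1.02 and of -0.82 once cells were thinned to 2000 UMIs.

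The direction of MHC class II was the reverse of that against Cd209a cells. Set against all other cells, 10 of 12 class II genes had higher levels in members and 2 had lower ones (median 1.24). H2-Ab1 was at 9048, 10016 and 9877 CPM in members and 4059, 3315 and 3267 in other cells (adjusted p = 1.12e-49, log2 fold change 1.36 ± 0.0892 (SE)). Ciita, the master regulator of class II, was higher by 1.79 ± 0.199, and H2-Ob by 3.81 ± 0.371. The lysosomal proteases Lgmn and Ctss were the 2 lower genes, at -3.27 ± 0.166 and -1.71 ± 0.109. In the cross-presentation list 9 genes were higher, led by Psmb9 (2.15 ± 0.164, 725, 734 and 759 CPM against 160.3, 165 and 147), and 7 lower. All 16 mitosis genes and 14 of 16 S phase genes were higher than in other cells, 7 and 8 without infarct replicate 1.

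Integrins, the receptor family that the study addressed in macrophages, were partly lower in members: of 16 tested besides Itgae, 6 were lower and 2 higher. Itgb7, whose protein pairs with that of Itgae, was at 179, 168 and 127 CPM against 37.7, 20.3 and 23.4 (adjusted p = 5.68e-18, log2 fold change 2.44 ± 0.267 (SE)). In Cd209a cells it was at 240.5, 206 and 222 CPM (members over Cd209a cells, log2 fold change -0.52 ± 0.188, adjusted p = 0.112). Itgal was higher by 1.14 ± 0.337, a direction that reversed to -0.32 with cells thinned to 2000 UMIs. Itgb5, Itgam, Itgav and Itgb1 were lower, at -3.55 ± 0.305, -2.45 ± 0.258, -1.28 ± 0.320 and -0.99 ± 0.191, as were Itga6 and Itga9. Itga5 had 11 UMIs in infarct members, 23.9, 0 and 25.5 CPM against 49.9, 43.8 and 43.7 in other cells, and did not pass (log2 fold change -1.35 ± 0.438, adjusted p = 0.0151).

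Markers of other lineages were measured beside these results. The summed list of 22 macrophage genes was at 3446 CPM in baseline members and at 10825, 3925 and 4427 CPM in members of infarct replicates 1, 2 and 3, against 44554 to 87740 CPM in all other cells. Apoe made the difference between the replicates visible, at 3072, 327 and 560.3 CPM in the infarct members and 256 at baseline. Of its 771 UMIs in infarct replicate 1, the 6 members with high doublet scores held 77, 221, 25, 182, 19 and 212. The remaining members of that library had 1 to 7 each. Against all other cells 14 of 19 macrophage genes tested were lower, a list on which the C1q limit of the rule bears. Mertk had no UMI in infarct members (at least 11.4-fold lower), and Csf1r, whose promoter drove the sort, was at 74.3 ± 57.5 CPM against 756 ± 19.2 (SD, n = 3). Lists of T or natural killer cell, granulocyte and fibroblast genes summed to 0 to 88.4 CPM in members of any library. The B cell list summed to 150 to 187 CPM, with Cd79a and Pax5 at 0. The endothelial list was at 554 CPM in baseline members and 7.97 to 35.4 CPM in infarct members.

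To describe how the members of the infarcted hearts differed from those of the baseline library, CPM were compared with no test, because there was 1 baseline library. Of 1824 genes with enough UMIs, 223 had all 3 infarct libraries above the exact 95% Poisson interval of the baseline value (12.2%) and 326 had all 3 below it (17.9%). With TMM factors in place of total UMIs the split was 357 above and 222 below and the median log2 ratio moved from -0.01 to 0.16, so the balance of directions depends on the scaling.

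Among the 223 genes with all 3 infarct libraries above the baseline interval, 5 had the highest ratios. Ifitm1, an interferon-inducible membrane protein on the cDC2 list, had no UMI in 23 baseline members and 230 UMIs in 12 of 32 infarct members, at 275, 1273 and 86.6 CPM, at least 40.0-fold higher. Infarct replicate 2 held 144 of those UMIs, and without it the bound was at least 18.7-fold. It had the same direction in Cd209a cells, with a log2 ratio of 6.06. Ier3, an early response gene, had 1 baseline UMI (3.42 CPM, interval 0.0865 to 19.0) and stood at 115 ± 23.9 CPM (SD, n = 3) after infarction. Wfdc17, a small secreted protein of activated myeloid cells, stood at 44.4 CPM and 432 ± 48.5 CPM, a log2 ratio of 3.28. Flot1, a membrane scaffold protein, had UMIs in 5 of 23 baseline and 24 of 32 infarct members (log2 ratio 2.72). Ctsd, cathepsin D, had a log2 ratio of 3.03, and 1 cell held 54.5% of its infarct UMIs.

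The 5 lowest ratios among the 326 genes below the interval rested in part on single cells. Fabp4, a fatty acid carrier of endothelium and macrophages, had the lowest ratio at -5.59, and 104 of its 108 baseline UMIs were in 1 cell. The baseline UMIs of the endothelial genes Cdh5, Kdr and Emcn were also each in 1 cell. Cxcl10 had a ratio of -3.82, with all 35 baseline UMIs in 1 cell, and Id3 one of -3.75, with 44.7% in 1 cell. Rtl8b was spread more widely, with UMIs in 15 of 23 baseline and 10 of 32 infarct members (log2 ratio -2.73), as was Gm42031 (-2.66), found in 20 of 23 and 12 of 32.

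Among listed genes, Itga4, the integrin chain that binds VCAM-1, was at 745 CPM in baseline members (interval 649.6 to 851) and at 251, 168 and 143 CPM after infarction. Its log2 ratio was -1.99 in members and -1.76 in Cd209a cells. Over all 1824 genes with enough UMIs, 12.2% stood above the baseline interval in all 3 infarct libraries and 17.9% below it. Of 12 MHC class II genes with enough UMIs 6 stood above the baseline interval in all 3 infarct libraries and none below it, and of 22 cross-presentation genes 8 and none. Examples had log2 ratios of 0.27 for H2-Aa, 0.41 for H2-Ab1, 0.50 for B2m and 0.60 for Psmb9. The same ratios in Cd209a cells were 0.49, 0.58, 0.51 and 0.80. The macrophage list moved the same way: of 10 genes with enough UMIs, 4 stood above (Cd68, Apoe, Ctsd and Lgals3) and none below. Myd88, the adaptor of most Toll-like receptors, had a ratio of 1.57 and the oxidase gene Ncf4 of 1.39. Of 18 identity genes with enough UMIs, 2 were above the baseline interval in all 3 libraries, Naaa (0.75) and Ckb (0.69). Below it were 5, namely Irf8 (-0.55), Wdfy4 (-0.66), Fnbp1 (-0.63), Hepacam2 (-1.10) and Cd36 (-2.29), and the other 11, with Batf3, Id2 and Cst3, were on neither side. Beside the shares over all genes, these identity counts are given as values only. Weak members were unevenly spread over the libraries, and their part in these ratios was not tested. In Cd209a cells the ratio of Cd36 was -3.40, and in baseline members 1 cell held 32.3% of its UMIs.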

How the data were processed

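Single cells were captured with 10x Genomics 3' chemistry. The authors aligned and counted reads with Cell Ranger on mm10 and deposited 1 table of UMI counts per gene and cell for each library. The table headers give Cell Ranger 3.1.0 and the submitters' processing notes 3.0.1. Transcripts whose genes are near-identical copies (Ifi205 and its relatives, the Cd209 genes, Mgl2 and Clec10a, H2 genes) may have been split or lost at counting.

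Cells with 500 to 40000 UMIs and more than 200 genes were kept, 41533 in all, from 71093963 to 97944428 deposited UMIs per library. The study reported fewer cells than this filter leaves. No cell type annotation was used, and cells were not clustered. Members and gene lists were chosen with earlier results of these data known. Cells are not replicates, so counts were summed per library and group. CPM are a gene's share of the non-mitochondrial UMIs, scaled to 1000000 UMIs (of all UMIs for cells grouped at the rule's limits). Members were tested against Cd209a cells and against all other cells in the 3 infarct libraries with edgeR 4.0.16 (R 4.3.3; quasi-likelihood test, TMM, filterByExpr), with the library as a block because both sums of a pair came from 1 heart. Each infarct library was 1 heart. Calls had a Benjamini-Hochberg adjusted p under 0.01 over all genes tested, and an SE is the log2 fold change divided by the square root of F. Conditions were not tested, since baseline had 1 library. A gene with no UMI was bounded by 3 counts over its group.

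Doublets were scored with Scrublet (scanpy 1.11.5 on Python 3.11.15). Its own threshold marked 0% to 1.97% of cells and had not worked in the infarct libraries, so doublets were kept and an alternative removed the 8.10% to 8.63% of cells with the highest scores. On simulated counts for the comparison with Cd209a cells (6767 genes), 44% of genes changed by 1 log2 unit and 99% of those changed by 2 units were recovered. For the comparison with all other cells (12282 genes) the shares were 38% and 98%. Changed genes were drawn only from those above a minimum expected count in the smallest sum, under a common dispersion. Recovery of genes with lower counts was not tested.

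Genes named were those of the lists, plus, against Cd209a cells, the 10 highest and 10 lowest called genes with the same direction in 3 libraries and at least 50 CPM in the higher group; against all others, the 10 highest; and between conditions, the 5 highest and 5 lowest log2 ratios among genes with at least 100 CPM in one group, 10 UMIs and all 3 infarct libraries beyond the baseline's exact 95% Poisson interval on 1 side. Alternatives were DESeq2 1.42.0 size factors, its Wald test, testing genes of any count, a fit without the block, leaving out each replicate, all 4 libraries, doublets removed, thinning to 2000 UMIs, under 10% mitochondrial UMIs, stricter member rules and, added after the data were seen, cells with at least 10000 UMIs.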

Additional observations from a re-analysis of the deposited data

Results flagged for a closer look

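The 86 listed or named genes that passed against Cd209a cells in the 3 infarct libraries were screened against the single baseline library. For 6 of the 86 the difference was absent or opposite at baseline. Other called genes were not screened, so no share over all genes is given. The change of the difference was not tested. Rrm2, a replication gene, had a log2 fold change of 3.32 in the infarct libraries and a log2 ratio of -0.10 at baseline, where members stood at 27.3 CPM and Cd209a cells at 29.3. Mcm2, a subunit of the replicative helicase, had 2.04 in the infarct libraries and -0.72 at baseline, on 4 baseline member UMIs. Ltb, which encodes lymphotoxin beta, had -3.99 and 0.03, with 13.7 CPM in baseline members and 13.4 in baseline Cd209a cells, against 10.2 and 122 CPM after infarction. Il1r2, the decoy receptor for interleukin 1, had -2.36 and 0.03, with 20.5 and 20.1 CPM at baseline and 19.0 and 93.2 after infarction. Ncf4, an oxidase subunit, had 1.22 and -0.04, with members at 88.9 CPM at baseline and 233 after infarction. H2-Oa, which restrains class II loading, had -1.17 and 0.46, with Cd209a cells at 57.1 CPM at baseline and 229 after infarction. For Ltb, Il1r2 and H2-Oa the Cd209a cells held most of the shift in CPM, and for Ncf4 the members did.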

How the results depend on the processing

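Of the genes named against Cd209a cells, 1198 of 1426 values under alternatives kept direction and side of the threshold, 228 lost significance and 0 reversed. Against all other cells it was 2151, 339 and 10 of 2500. Against Cd209a cells, where 178 genes were higher and 148 lower, no filter on low counts gave 280 and 393, thinning to 2000 UMIs 24 and 30, and only cells with at least 10000 UMIs, chosen after seeing the data, 114 and 75. Leaving out each replicate gave 10 to 255 higher and 10 to 175 lower, both lowest without infarct replicate 1. Genes lower numbered 87 with the DESeq2 Wald test, 241 with members that had both Xcr1 and Clec9a, 272 with at least 3 of 4 rule genes and 262 with C1q under 15. Against all other cells (701 higher, 931 lower), thinning gave 44 and 296, the Wald test 452 lower, both Xcr1 and Clec9a 390 higher, at least 3 rule genes 408 higher, and leaving out each replicate 338 to 555 higher and 580 to 769 lower. With no replicate block, where pairs come from 1 heart, counts were 216 and 158 against Cd209a cells and 699 and 812 against all other cells. Against all other cells thinning, which shifted the median of all genes by -0.784, reversed Rab43 (-1.12), Fnbp1 (-0.071), Calr (-0.11), Myd88 (-0.82), Itgal (-0.32), Mcm2 (-0.047) and Mcm3 (-0.63). Isg20 reversed with both Xcr1 and Clec9a (-3.27) and with at least 3 rule genes (-0.23), and Fabp4 with all 4 libraries (0.19). The cause was not tested.

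The share of members was 0.0347% after infarction and 0.0556% at baseline with the rule applied after thinning. It was 0.0577% after infarction with both Xcr1 and Clec9a and also with at least 3 rule genes, the latter giving 0.137% at baseline. Between conditions (223 higher, 326 lower), thinning gave 42 and 71, TMM 357 higher, both Xcr1 and Clec9a 139 higher, and leaving out each replicate 300 to 322 higher and 393 to 438 lower. The 8 members of infarct replicate 2 and the single baseline library set the limits of depth, with floors of 10.3 to 26.5 CPM for a gene with no UMI.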
